A study of Mus musculus with 9 samples.

Results

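The endoplasmic reticulum (ER) stress genes described here are 10 genes chosen by symbol, Herpud1, Hspa5, Ddit3, Atf4, Xbp1, Dnajb9, Sdf2l1, Hsp90b1, Pdia4 and Trib3. All 10 were found among the 55453 genes of the count table, and all 10 were among the 19412 that passed the filter on low counts. The libraries hold poly(A) RNA of undivided aortae, taken from 9 animals of strain C57BL/6J that fall into 3 genotypes with 3 animals apiece. Itga8-Cre animals carried Itga8-CreERT2, in which a Cre recombinase switched on by tamoxifen is named for the integrin alpha 8 gene. Myh11-Cre mice carried Myh11-CreERT2, named for the smooth muscle myosin heavy chain gene, and Wild Type mice carried neither as far as the labels say. The labels give no age, sex, tamoxifen treatment, floxed allele or batch for any group, and the study set the activity of both Cre mice side by side. No agent that stresses the ER is named.

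The ER folds secreted and membrane proteins, and smooth muscle cells and fibroblasts of the aortic wall load it with collagen and elastin. When unfolded proteins build up, the sensors IRE1 (gene Ern1), PERK (Eif2ak3) and ATF6 start the unfolded protein response. IRE1 splices Xbp1 messenger RNA so that it codes for an active transcription factor. PERK slows translation while favouring that of ATF4, and ATF6 is cut in the Golgi to free a transcription factor. Their targets are chaperones, genes of ER-associated degradation and, when stress lasts, the death-linked factor CHOP (Ddit3). Gene counts do not separate spliced from unspliced Xbp1 and do not measure ATF4 protein or ATF6 cleavage.

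Genes of the response carry known elements in their promoters. RefSeq promoters (GRCm38.p6, 250 bases before and 50 after the start) matched all 10 genes and were searched on both strands for the ER stress response element ERSE (CCAAT and CCACG with 9 bases of any kind between), ERSE-II (ATTGG and CCACG with 1 base between), the unfolded protein response element UPRE (TGACGTGG) and the C/EBP-ATF element CARE (TGATGNAA), bound by ATF4 dimers. ERSE was in the promoters of Hspa5 and Hsp90b1 and in 0.119% of all 32851 promoters. ERSE-II was in that of Herpud1 and in 0.0365% of all promoters. CARE was in those of Herpud1 and Trib3 and in 3.97% of all promoters, and UPRE was in 0 of the 10 and 0.676% of all promoters. A match is a description of letters and not proof of a bound site. Only exact letters were searched, so no match is not proof that an element is absent. Any bearing of the elements on the levels of these genes was not tested. The matches are shown because Herpud1 and Hspa5 had different patterns over the genotypes, with the fixed letters of each element in capitals, read 5′ to 3′ along the gene's own strand.
Herpud1 ERSE-II (chr8:94386371-94386393, plus strand): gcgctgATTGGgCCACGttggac
Herpud1 CARE, reverse complement (chr8:94386311-94386330, plus strand): ggcgggTTgCATCAgcccgc
Hspa5 ERSE (chr2:34772019-34772049, plus strand): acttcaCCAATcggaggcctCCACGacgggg
Hsp90b1 ERSE (chr10:86705632-86705662, minus strand): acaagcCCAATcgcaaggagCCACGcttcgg
Hsp90b1 ERSE, reverse complement (chr10:86705527-86705557, minus strand): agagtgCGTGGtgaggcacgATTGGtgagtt
Trib3 CARE, reverse complement (chr2:152344033-152344052, minus strand): tcaggtTTaCATCAgccggg

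In the Herpud1 promoter the ERSE-II lay at positions -52 to -42 from the start and the CARE at -112 to -105. In the Hspa5 promoter the ERSE lay at -65 to -47. Both promoters are shown whole, because they carry different elements of the same response.
Herpud1 promoter (chr8:94386179-94386478, plus strand): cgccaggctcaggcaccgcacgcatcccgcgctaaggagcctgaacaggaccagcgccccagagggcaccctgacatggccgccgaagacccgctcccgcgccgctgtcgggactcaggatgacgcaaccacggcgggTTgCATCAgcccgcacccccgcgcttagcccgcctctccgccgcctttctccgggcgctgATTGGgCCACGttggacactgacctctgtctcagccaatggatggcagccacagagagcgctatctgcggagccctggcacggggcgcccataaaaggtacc
Hspa5 promoter (chr2:34771840-34772139, plus strand): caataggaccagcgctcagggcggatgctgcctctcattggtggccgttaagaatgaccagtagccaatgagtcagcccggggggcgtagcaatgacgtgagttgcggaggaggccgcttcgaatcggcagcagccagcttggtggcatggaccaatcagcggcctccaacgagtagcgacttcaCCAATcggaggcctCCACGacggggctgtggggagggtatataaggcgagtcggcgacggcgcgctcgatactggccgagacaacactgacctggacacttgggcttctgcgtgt

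Total counts ran from 31419238 to 42497543 per library, and levels are given in CPM, gene counts relative to the library total (CPM as edgeR gives it) after TMM, its trimmed mean scaling, as mean ± SD of 3 mice. The summed level of 8 smooth muscle markers was 1259 to 1718 CPM in Itga8-Cre aortae, 1020 to 3088 CPM in Myh11-Cre aortae and 1986 to 3301 CPM in Wild Type aortae, so the labelled tissue was present in every library. Tissue around the vessel varied: 6 skeletal muscle markers summed to 122 to 5243 CPM in Itga8-Cre aortae, 81.2 to 11999.5 CPM in Myh11-Cre aortae and 671 to 1295 CPM in Wild Type aortae. Myh11 was at 670.0 ± 67.0 CPM in Itga8-Cre aortae, 873 ± 359 CPM in Myh11-Cre aortae and 1145 ± 201 CPM in Wild Type aortae. Itga8 itself was at 64.5 ± 11.3 CPM in Itga8-Cre aortae, 223 ± 131 CPM in Myh11-Cre aortae and 273 ± 177 CPM in Wild Type aortae. In whole tissue, fewer cells of a type and less RNA per cell cannot be told apart.

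Per length of exon, the chaperone genes Hspa5 and Hsp90b1 stood at the top of the 10 genes, and Ddit3, Sdf2l1 and Trib3 at the bottom. The mean over the 9 libraries was 76.0 CPM per kb for Hspa5, 58.9 for Hsp90b1 and 55.9 for Herpud1. It was 30.2 for Atf4, 27.0 for Pdia4, 26.9 for Xbp1 and 14.96 for Dnajb9. Ddit3 was at 7.16, Sdf2l1 at 4.85 and Trib3 at 1.71 CPM per kb. Neighbours in this order such as Hsp90b1 and Herpud1, or Pdia4 and Xbp1, lay closer to each other than the SD of either over the libraries. Of 19246 tested genes with a length, 98.0% lay below Hspa5 and 41.8% below Trib3. The Ddit3 level is uncertain, because GENCODE M21 holds 2 overlapping loci under that symbol and the count table has a single row.

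The spread over libraries also differed within the group of genes. Over the 9 libraries, the highest value exceeded the lowest 1.22-fold for Hsp90b1 and 1.27-fold for Hspa5. The same ratio was 2.1-fold for Herpud1, whose coefficient of variation was 25.4%, against a median of 13.1% among the 2166 tested genes within 2-fold of its CPM level. Hspa5 varied by 8.19%, against a median of 19.0% among the 648 genes near its level. Herpud1 was thus the abundant member that varied most, and Hspa5 and Hsp90b1 were the steadiest of the 10.

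**Figure D1:**
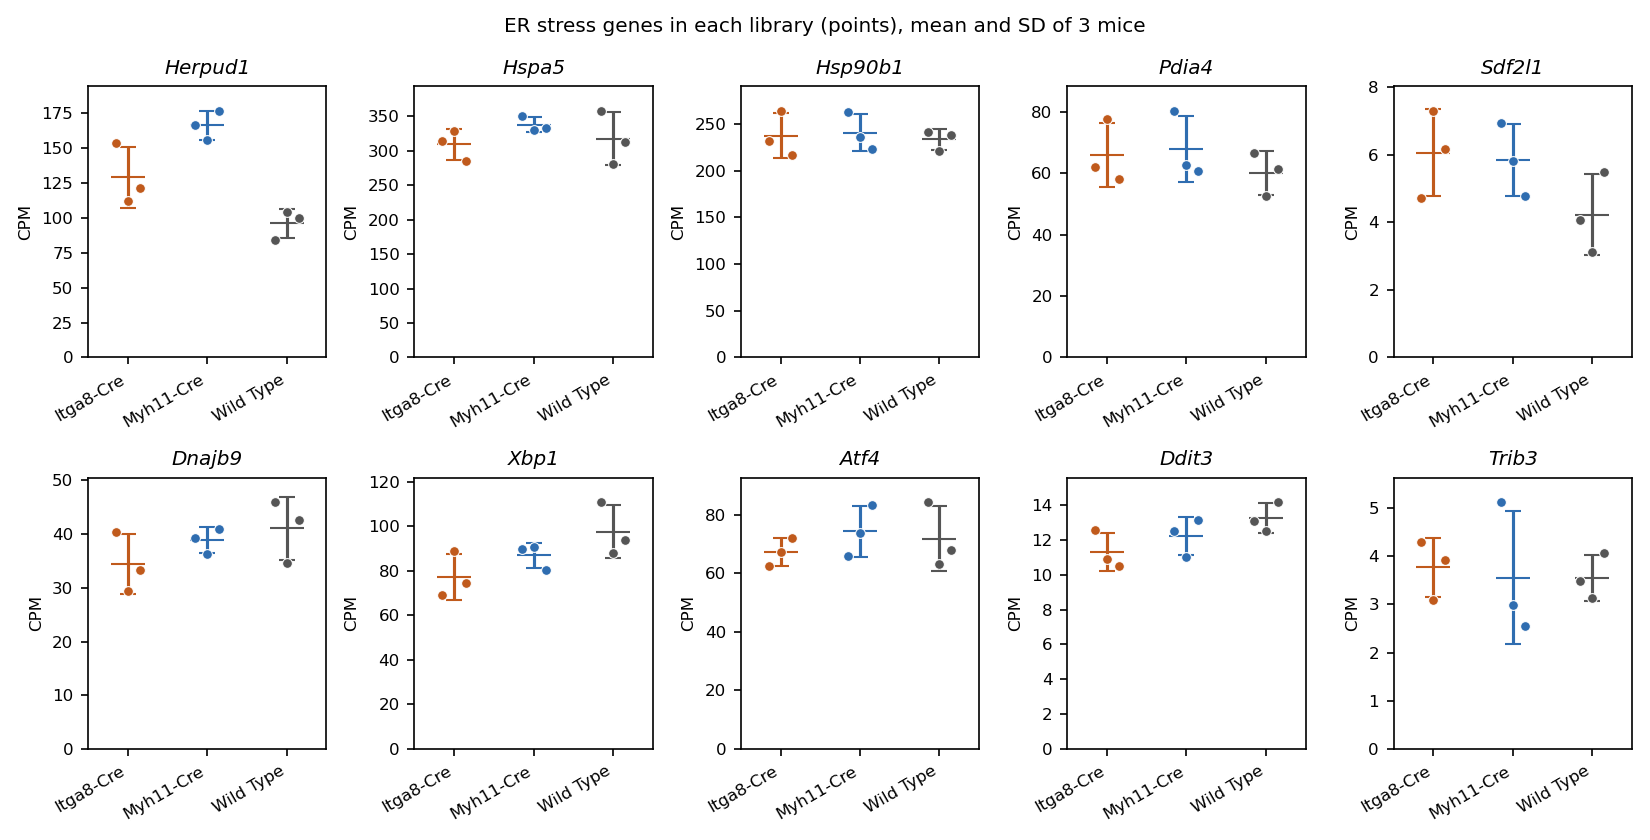
Level of each of the 10 ER stress genes in CPM (vertical axes, from 0) in the 3 libraries of Itga8-Cre, Myh11-Cre and Wild Type (points), with the mean and SD as a bar. Herpud1 separates the genotypes, with 156 to 177 CPM in Myh11-Cre aortae and 84.3 to 104 CPM in Wild Type aortae, while the libraries of the other genes mostly overlap.

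Herpud1 (ENSMUSG00000031770.16, GENCODE M21, GRCm38, chromosome 8, 94386438 to 94395377, plus strand) codes for an ER membrane protein of the degradation machinery that removes misfolded proteins. It was at 154, 112 and 121 CPM in Itga8-Cre aortae, 166, 156 and 177 CPM in Myh11-Cre aortae and 84.3, 104 and 99.8 CPM in Wild Type aortae. The 3 genotypes did not overlap, with Myh11-Cre above Itga8-Cre and Itga8-Cre above Wild Type.

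In Myh11-Cre against Wild Type, Herpud1 averaged 166 ± 10.4 CPM and 96.0 ± 10.4 CPM (SD, n = 3 each), a 1.73-fold higher level. The log2 fold change was 0.79 (SE 0.14, 95% interval 0.47 to 1.12). Its p in edgeR's quasi-likelihood test was 0.000411, rank 14 of 19412 genes, and its adjusted p was 0.218, which did not pass the threshold of 0.05. DESeq2 gave an adjusted p of 0.00116 and limma voom 0.228. The log2 fold change lay between 0.71 and 0.86 when each library was left out in turn, with edgeR adjusted p values of 0.0869 to 0.518, so none of these fits passed. With Itga8-Cre 1 and Myh11-Cre 1 left out, which had the lowest summed skeletal muscle markers, the edgeR adjusted p was 0.0431 at a log2 fold change of 0.79. These libraries were picked by their expression values. In that fit 234 genes passed as higher and 31 as lower of 19803 tested, against 0 in the main fit.

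In Itga8-Cre against Wild Type the Herpud1 means were 129 ± 21.8 CPM and 96.0 ± 10.4 CPM, a 1.34-fold higher level (log2 fold change 0.43, SE 0.14, 95% interval 0.10 to 0.75). The edgeR adjusted p was 0.699 at an unadjusted p of 0.0159, and the DESeq2 adjusted p was 0.478. Itga8-Cre 1 held the highest value of its group, and without it the log2 fold change was 0.28. In Itga8-Cre against Myh11-Cre the Herpud1 log2 fold change was -0.37 (SE 0.14, edgeR unadjusted p = 0.0305 and adjusted p = 0.521). Both Cre lines were set against the same 3 Wild Type libraries, so their values are not independent of each other.

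Ratios to the other members do not depend on how libraries are scaled. Herpud1 over Hspa5 was 0.473 to 0.53 in Myh11-Cre and 0.235 to 0.369 in Wild Type, and Herpud1 over Hsp90b1 was 0.634 to 0.791 in Myh11-Cre and 0.349 to 0.471 in Wild Type. Of the 9 ratios of Herpud1 to another member, 7 did not overlap between Myh11-Cre and Wild Type, the exceptions being those to Sdf2l1 and Trib3. In Itga8-Cre against Wild Type 4 of the 9 did not overlap. Herpud1 alone already did not overlap in either comparison, as for 26% and 11.1% of all genes. The share of such ratios over all genes was not computed, so these counts are descriptions only. The exact two-sided permutation p for Herpud1 over Hspa5 in Myh11-Cre against Wild Type was 0.1, the smallest that 3 against 3 mice allow, and the 9 ratios share the Herpud1 values.

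Summed markers of several other tissues were set beside Herpud1, and only some of them differed between the genotypes. The 4 mesothelial markers summed to 46.7 to 57.8 CPM in Itga8-Cre aortae, 60.3 to 127 CPM in Myh11-Cre aortae and 20.0 to 41.4 CPM in Wild Type aortae, the same order as Herpud1, and their part in the result was not tested. The 4 nerve markers summed to 35.9 to 151 CPM in Myh11-Cre aortae and 174 to 441 CPM in Wild Type aortae, and their part was not tested either. The 6 macrophage markers summed to 486 to 967 CPM in Itga8-Cre aortae, 323 to 918 CPM in Myh11-Cre aortae and 312 to 439 CPM in Wild Type aortae. The 6 immediate early genes summed to 106 to 120 CPM in Itga8-Cre aortae, 95.7 to 135 CPM in Myh11-Cre aortae and 132 to 221 CPM in Wild Type aortae. In both lists Itga8-Cre did not overlap Wild Type and Myh11-Cre did, and their part in the Herpud1 values was not tested. The 7 brown fat markers summed to 7496, 2349 and 4544 CPM in Itga8-Cre 1, 2 and 3, to 6990, 3455 and 5325 CPM in Myh11-Cre 1, 2 and 3, and to 3843, 2918 and 3379 CPM in Wild Type 1, 2 and 3. Within Itga8-Cre the order of the libraries was the same for Herpud1 and these markers, within Wild Type it was the opposite, and within Myh11-Cre the highest library differed. With the brown fat score as a covariate, an alternative added after the data were seen, the log2 fold change of Herpud1 was 0.70 in Myh11-Cre and 0.38 in Itga8-Cre against Wild Type. Myh11-Cre 1, 2 and 3 had 81.2, 8026 and 11999.5 CPM of summed skeletal muscle markers and held Herpud1 at 166, 156 and 177 CPM. The part of skeletal muscle in the Herpud1 values was not tested. The 5 genes whose log2 CPM over the 9 libraries had the highest Pearson r with Herpud1, chosen for listing after its values were seen, were Mterf2 (r = 0.97), Mtfp1 (0.96), Akr1b10 (0.96), Dhrs11 (0.96) and the mitochondrial malic enzyme gene Me3 (0.95), among 11641 genes with a mean of at least 5 CPM. None of the 5 is in the lists of the pathway used here.

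Of the ER chaperone genes and their partners among the 10, none passed edgeR's or DESeq2's test in any comparison. Hspa5 (chromosome 2, 34771970 to 34777547, plus strand) codes for BiP, the main Hsp70 chaperone of the ER, which holds the stress sensors inactive. It was at 315, 328 and 285 CPM in Itga8-Cre aortae, 351, 330 and 333 CPM in Myh11-Cre aortae and 358, 281 and 313 CPM in Wild Type aortae. The Wild Type libraries spanned all 3 Myh11-Cre values. Its log2 fold change was -0.04 (95% interval -0.34 to 0.26) in Itga8-Cre and 0.09 (95% interval -0.21 to 0.39) in Myh11-Cre, both against Wild Type. These intervals run up to a 1.2-fold and a 1.31-fold higher level. Between the Cre lines all 3 Itga8-Cre values lay below all 3 Myh11-Cre values, with a log2 fold change of -0.13 (SE 0.13) and an edgeR adjusted p of 0.732.

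Hsp90b1 (chromosome 10, 86690209 to 86705509, minus strand) codes for GRP94, the Hsp90 chaperone of the ER. Its values were 231, 264 and 217 CPM in Itga8-Cre aortae, 263, 236 and 224 CPM in Myh11-Cre aortae and 241, 221 and 239 CPM in Wild Type aortae, and the groups overlapped throughout. The 95% interval of its log2 fold change against Wild Type was -0.26 to 0.30 in Itga8-Cre and -0.24 to 0.32 in Myh11-Cre. It shares 415 exon bases, 10.3% of its exon length, with the pseudogene 1810014B01Rik on the opposite strand, which had at most 355 counts in a library. The library kit marks strand, and whether counting used it was not stated in the labels.

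Pdia4 (chromosome 6, 47796141 to 47813430, minus strand), a protein disulfide isomerase that forms disulfide bonds, was at 62.0, 77.7 and 58.2 CPM in Itga8-Cre aortae, 80.5, 62.9 and 60.8 CPM in Myh11-Cre aortae and 66.5, 52.6 and 61.3 CPM in Wild Type aortae. Each Cre line had a single library above the Wild Type range, Itga8-Cre 2 and Myh11-Cre 1, and the groups overlapped. The log2 fold changes against Wild Type were 0.13 (SE 0.16) and 0.18 (SE 0.16).

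Sdf2l1 (chromosome 16, 17130138 to 17132383, minus strand), a partner of BiP that limits protein aggregation, was at 4.72, 7.3 and 6.16 CPM in Itga8-Cre aortae, 6.92, 5.81 and 4.79 CPM in Myh11-Cre aortae and 4.06, 3.12 and 5.49 CPM in Wild Type aortae. The group means of both Cre lines lay above Wild Type and the groups overlapped. The log2 fold change was 0.52 (95% interval -0.07 to 1.11) in Itga8-Cre and 0.47 (95% interval -0.12 to 1.05) in Myh11-Cre. The lowest library had 118 counts of Sdf2l1, and both intervals include 0. The ratio of Herpud1 to Sdf2l1 overlapped between each Cre line and Wild Type, with log2 differences of -0.12 in Itga8-Cre and 0.31 in Myh11-Cre (exact two-sided permutation p = 0.7 and 0.4).

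Dnajb9 (chromosome 12, 44205559 to 44210326, minus strand) codes for ERdj4, a J-domain partner of BiP that restrains IRE1. It was at 40.4, 29.4 and 33.4 CPM in Itga8-Cre aortae, 39.3, 36.3 and 41.0 CPM in Myh11-Cre aortae and 45.9, 34.6 and 42.7 CPM in Wild Type aortae. The Myh11-Cre libraries lay within the Wild Type range, while Itga8-Cre 2 and Itga8-Cre 3 lay below it and Itga8-Cre 1 within it. The log2 fold changes against Wild Type were -0.26 (SE 0.14) in Itga8-Cre and -0.08 (SE 0.14) in Myh11-Cre.

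**Figure D2:**
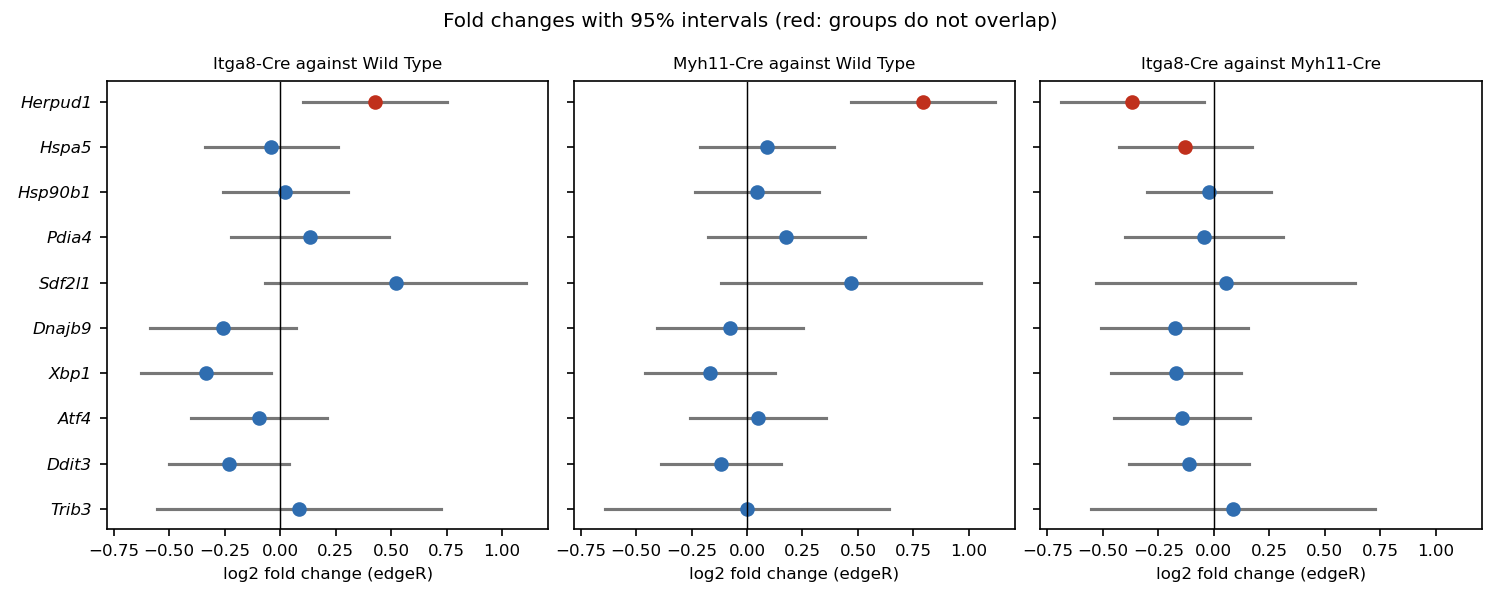
Log2 fold change in edgeR (horizontal axes) with its 95% interval for each of the 10 genes in the 3 comparisons, in red where the 3 libraries of one group lie all above or all below those of the other. The Herpud1 interval lies above 0 against Wild Type in both Cre lines, at 0.47 to 1.12 in Myh11-Cre and 0.10 to 0.75 in Itga8-Cre.

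The transcription factor genes Xbp1, Atf4 and Ddit3 each had their lowest group mean in Itga8-Cre, as did Hspa5 and Dnajb9. Xbp1 (chromosome 11, 5520659 to 5525893, plus strand), the target of IRE1 splicing, is also high in plasma cells. It was at 69.0, 88.8 and 74.4 CPM in Itga8-Cre aortae, 89.9, 90.6 and 80.6 CPM in Myh11-Cre aortae and 111, 87.9 and 94.0 CPM in Wild Type aortae. Itga8-Cre 2 overlapped Wild Type 2, and the other 2 Itga8-Cre libraries were the lowest of all 9. In Itga8-Cre against Wild Type, Xbp1 averaged 77.4 ± 10.3 and 97.6 ± 11.9 CPM, and its log2 fold change was -0.33 (SE 0.13, edgeR unadjusted p = 0.0301, adjusted p = 0.699, DESeq2 adjusted p = 0.427). In Myh11-Cre against Wild Type it was -0.17 (95% interval -0.46 to 0.13). The 9 plasma cell markers summed to 423 to 770 CPM in Itga8-Cre aortae, 344 to 1886 CPM in Myh11-Cre aortae and 227 to 597 CPM in Wild Type aortae, which overlapped between the groups, and their part in the Xbp1 values was not tested.

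Atf4 (chromosome 15, 80255184 to 80257541, plus strand), the factor translated when PERK is active, was at 62.3, 67.4 and 72.0 CPM in Itga8-Cre aortae, 65.9, 73.6 and 83.4 CPM in Myh11-Cre aortae and 84.2, 63.2 and 68.0 CPM in Wild Type aortae. Its groups overlapped, and Wild Type 1 was the highest library. The log2 fold changes against Wild Type were -0.10 (SE 0.13) in Itga8-Cre and 0.05 (SE 0.13) in Myh11-Cre.

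Ddit3 (ENSMUSG00000025408.15, chromosome 10, 127290774 to 127296288, plus strand) codes for CHOP, a factor that promotes cell death under lasting stress. It was at 12.6, 10.9 and 10.47 CPM in Itga8-Cre aortae, 12.5, 11.01 and 13.2 CPM in Myh11-Cre aortae and 13.1, 12.5 and 14.2 CPM in Wild Type aortae. Itga8-Cre 1 lay above the lowest Wild Type library by a small margin and the other Itga8-Cre libraries lay below it. The log2 fold changes were -0.23 (95% interval -0.50 to 0.04) in Itga8-Cre and -0.12 (95% interval -0.39 to 0.15) in Myh11-Cre. The upper ends correspond to 1.03-fold and 1.11-fold higher levels than in Wild Type.

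Trib3 (chromosome 2, 152337422 to 152344032, minus strand), a pseudokinase gene switched on by ATF4 and CHOP, was at 4.29, 3.1 and 3.92 CPM in Itga8-Cre aortae, 5.12, 2.99 and 2.55 CPM in Myh11-Cre aortae and 3.48, 3.12 and 4.06 CPM in Wild Type aortae. Myh11-Cre held both the highest and the lowest library. The 95% intervals of its log2 fold change were -0.55 to 0.73 in Itga8-Cre and -0.64 to 0.64 in Myh11-Cre, each against Wild Type.

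Counted over the 10 genes, edgeR called 0 in each of the 3 comparisons, where 0% of the 19412 tested genes were called in each. At an unadjusted edgeR p under 0.05, Herpud1 was the 1 gene higher and Xbp1 the 1 gene lower in Itga8-Cre against Wild Type, where 6.78% of all genes were under it, 3.97% higher and 2.81% lower. In Myh11-Cre against Wild Type it was 1 gene, Herpud1, higher, against 6.93% of all genes higher and 16.4% in either direction. In Itga8-Cre against Myh11-Cre it was 1 gene, Herpud1, lower, against 1.83% of all genes lower and 9.48% in either direction. DESeq2 called 1 of the 10, Herpud1, higher in Myh11-Cre against Wild Type, where it called 4.44% of genes and 1.35% as higher, and 0 of the 10 in Itga8-Cre against Wild Type and Itga8-Cre against Myh11-Cre, where it called 0.166% and 0.109% of genes. Limma voom called 0 of the 10 and 0% of all genes in each.

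Groups did not overlap for 1 of the 10 in Itga8-Cre against Wild Type, Herpud1, which was higher, against 5.76% of all genes higher and 11.1% in either direction. They did not overlap for 1 in Myh11-Cre against Wild Type, again Herpud1, against 11.3% higher and 26% in either direction. In Itga8-Cre against Myh11-Cre they did not overlap for 2, Herpud1 and Hspa5, both lower, against 3.07% of all genes lower and 12.7% in either direction. The log2 fold change was above 0 for 5 of the 10 in Itga8-Cre against Wild Type (55.9% of all genes), for 6 in Myh11-Cre against Wild Type (50.9%) and for 2 in Itga8-Cre against Myh11-Cre (51.3%). The median log2 fold change of the 10 was -0.01 in Itga8-Cre against Wild Type (0.04 over all genes), 0.05 in Myh11-Cre against Wild Type (0.01 over all genes) and -0.12 in Itga8-Cre against Myh11-Cre (0.01 over all genes).

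Of the 10 genes, Hsp90b1 and Pdia4 were the pair that varied together past the test. Of 45 pairs, 28 had a Pearson r above 0 over the 9 libraries and the median r was 0.18. Hsp90b1 and Pdia4 had the highest r, at 0.94 (Spearman rho 0.92), with exact permutation p values of 0.000518 and 0.00131 and values adjusted over the 45 pairs of 0.0233 and 0.059. Their r was 0.97 after the genotype means were taken out and 0.76 without the 2 libraries farthest from the median of Hsp90b1. Both genes were highest in Itga8-Cre 2 and Myh11-Cre 1, which also had the highest summed plasma cell markers, at 770 and 1886 CPM. The next highest in these markers, Wild Type 3 at 597 CPM, held Hsp90b1 and Pdia4 at 239 and 61.3 CPM. The part of plasma cells in this pair was not tested. Hspa5 and Pdia4 had an r of 0.73, Sdf2l1 and Pdia4 0.72 and Hspa5 and Hsp90b1 0.67, and none of these 3 passed (exact permutation adjusted p of 0.33, 0.33 and 0.416).

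Ddit3 and Dnajb9 had an r of 0.81 and a rho of 0.88, with exact permutation adjusted p values of 0.193 and 0.0692. The r was 0.65 without the 2 libraries farthest from the median of Ddit3 and 0.72 within genotypes. Herpud1 had r values between -0.58 (with Xbp1) and 0.35 (with Sdf2l1), and no pair with it passed the test. With the genotype means taken out, Herpud1 and Xbp1 had an r of -0.90. Over all 45 pairs, 1 pair passed by Pearson and 0 by Spearman, and 5 pairs had an unadjusted exact permutation p under 0.05 by Pearson.

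**Figure D3:**
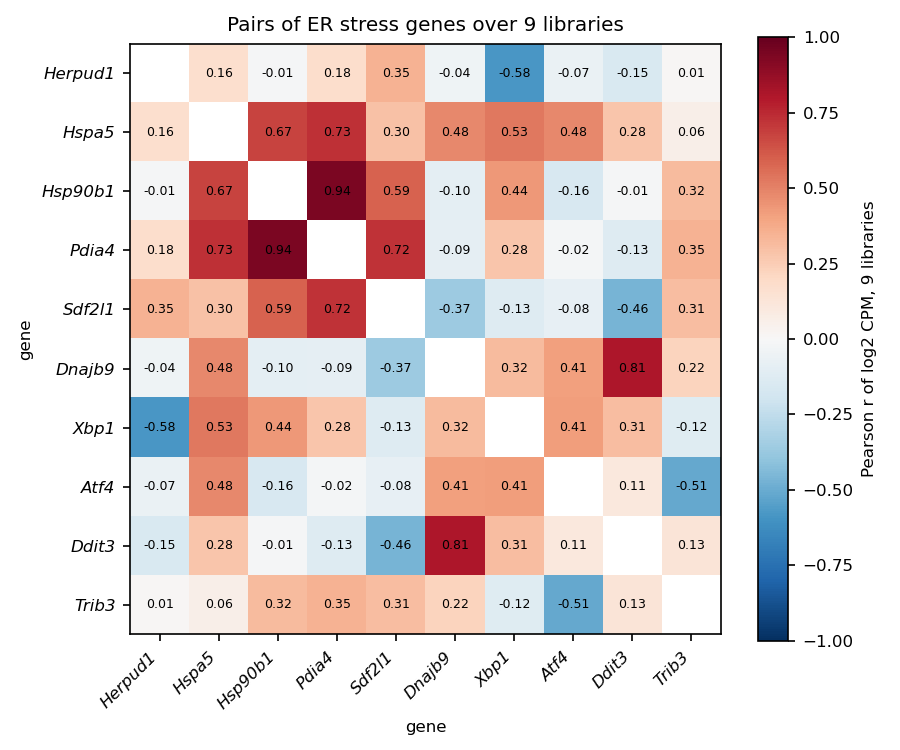
Pearson r of log2 CPM over the 9 libraries for the 45 pairs of ER stress genes (each axis lists the 10 genes, colour from -1 to 1). Hsp90b1 and Pdia4 stand highest at 0.94, and the Herpud1 row runs from -0.58 to 0.35.

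The 5 genes whose profile over the 9 libraries was most like that of Hspa5 included a single member of the pathway lists, Txndc5 (r = 0.89), an ER thioredoxin-domain oxidoreductase gene. The others were Slc25a10 (0.92), Trip12 (0.92), Mtap (0.89) and Srm (0.87), which code for a mitochondrial dicarboxylate carrier, a ubiquitin ligase, methylthioadenosine phosphorylase and spermidine synthase. For Ddit3 they were Ebf2 (r = 0.98), a transcription factor of brown fat precursors, 9330159M07Rik (0.94), Ap2a1 (0.92), Nrp1 (0.92) and Cdip1 (0.89). Each list was picked as the top of 11641 genes over 9 libraries.

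The other genes of the pathway were read from 4 lists, and edgeR called 0 of their members in any comparison. DESeq2 called Atf6 and Chac1, both higher, in Myh11-Cre against Wild Type, where it called 4.44% of genes and 1.35% as higher. It called no other member in the 3 comparisons. Over all genes it called 0.166% in Itga8-Cre against Wild Type and 0.109% in Itga8-Cre against Myh11-Cre. Among 14 stress sensors and kinases, the median log2 fold change was 0.04 in Itga8-Cre and 0.03 in Myh11-Cre against Wild Type, and 1 gene had an unadjusted p under 0.05 in each, Eif2ak3 and Atf6, both higher, against 3.97% and 6.93% of all genes higher and 6.78% and 16.4% in either direction. Atf6 was at 82.3, 75.7 and 70.2 CPM in Itga8-Cre aortae, 87.7, 86.4 and 87.9 CPM in Myh11-Cre aortae and 68.5, 69.0 and 64.4 CPM in Wild Type aortae, in the same order of genotypes as Herpud1 and with no overlap between groups, as for 11.1% of all genes in Itga8-Cre against Wild Type, 26% in Myh11-Cre against Wild Type and 12.7% in Itga8-Cre against Myh11-Cre. In Myh11-Cre against Wild Type, Atf6 averaged 87.4 ± 0.814 and 67.3 ± 2.53 CPM, and its log2 fold change was 0.38 (SE 0.09, edgeR unadjusted p = 0.00197 and adjusted p = 0.218, DESeq2 adjusted p = 0.0045). In Itga8-Cre against Wild Type it was 0.18 (SE 0.09, edgeR unadjusted p = 0.0718). The other sensors had smaller differences in Myh11-Cre: Ern1 averaged 28.3 ± 1.31 CPM, against 31.8 ± 2.9 CPM in Wild Type aortae, and Eif2ak3 averaged 29.8 ± 2.76 CPM, against 29.2 ± 0.762 CPM in Wild Type aortae. In Itga8-Cre, Eif2ak3 was at 33.7 ± 0.602 CPM, and its log2 fold change was 0.21 against Wild Type (SE 0.09, edgeR unadjusted p = 0.0441).

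Among the 21 other ER chaperones and folding enzymes, the median log2 fold change was 0.06 in Itga8-Cre and 0.09 in Myh11-Cre against Wild Type, with 14 and 17 of the 21 above 0, against 55.9% and 50.9% of all genes. At an unadjusted p under 0.05, 1 and 2 of the 21 were higher, against 3.97% and 6.93% of all genes. Groups did not overlap for 2 and 4 of the 21, all higher, against 5.76% and 11.3% of all genes higher. Manf, a secreted ER protein that protects cells under stress, was at 29.4 ± 1.48 CPM in Itga8-Cre aortae, 29.5 ± 4.64 CPM in Myh11-Cre aortae and 23.2 ± 2.33 CPM in Wild Type aortae, and all 6 Cre libraries lay above the Wild Type libraries. Its log2 fold changes were 0.34 (SE 0.13) and 0.35 (SE 0.13), with edgeR unadjusted p values of 0.0273 and 0.0257. Ppib, an ER prolyl isomerase used in collagen folding, had 0.25 (SE 0.10) in Myh11-Cre against Wild Type, and the BiP-like ATPase gene Hspa13 had -0.20 (SE 0.09) in Itga8-Cre against Myh11-Cre.

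Among 21 genes of ER-associated degradation and translocation, to which Herpud1 belongs by function, the median was -0.01 in Itga8-Cre and 0.10 in Myh11-Cre against Wild Type. Sec61b was the 1 gene higher at an unadjusted p under 0.05 in both, and Syvn1 the 1 gene lower in Myh11-Cre, where 16.4% of all genes were under that p, against 6.78% in Itga8-Cre. Of the 21, 10 lay above 0 in Itga8-Cre and 16 in Myh11-Cre, against 55.9% and 50.9% of all genes. Syvn1, the ubiquitin ligase HRD1 to which the Herpud1 protein binds, had its lowest values in Myh11-Cre, where Herpud1 had its highest, at 25.5, 23.0 and 27.2 CPM, against 30.1, 32.0 and 35.4 CPM in Wild Type aortae. Its log2 fold change was -0.37 (SE 0.12, edgeR unadjusted p = 0.0124, adjusted p = 0.232, DESeq2 adjusted p = 0.112). Between the Cre lines, Syvn1 was 0.43 (SE 0.12, edgeR unadjusted p = 0.00521) higher on the log2 scale in Itga8-Cre. Sec61b, a subunit of the translocation channel, was at 20.0 ± 1.92 CPM in Itga8-Cre aortae, 18.8 ± 1.83 CPM in Myh11-Cre aortae and 15.4 ± 0.176 CPM in Wild Type aortae, with log2 fold changes of 0.38 (SE 0.11) and 0.28 (SE 0.11).

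Of 27 ATF4 and CHOP targets, 26 were tested, and their median log2 fold change was 0.05 in Itga8-Cre and 0.15 in Myh11-Cre against Wild Type. At an unadjusted p under 0.05, 1 was higher and 2 were lower in Itga8-Cre (6.78% of all genes in either direction), and 2 were higher and 1 was lower in Myh11-Cre (16.4% of all genes). Of the 26, 16 lay above 0 and 10 below in Itga8-Cre, and 20 above and 6 below in Myh11-Cre, against 55.9% and 50.9% of all genes above 0. Chac1, a glutathione-degrading enzyme gene switched on by ATF4, was at 2.17, 2.24 and 4.45 CPM in Itga8-Cre aortae, 2.93, 5.83 and 6.56 CPM in Myh11-Cre aortae and 1.97, 1.51 and 1.93 CPM in Wild Type aortae. Myh11-Cre 2 and 3 and Itga8-Cre 3 had the highest Chac1 and also the most skeletal muscle transcripts, at 8026, 11999.5 and 5243 CPM of summed markers. Myh11-Cre 1 and Itga8-Cre 1 had the least of these markers, at 81.2 and 122 CPM, and their Chac1 lay above every Wild Type library. The part of that tissue was not tested. The log2 fold change of Chac1 in Myh11-Cre against Wild Type was 1.503 (SE 0.38, edgeR unadjusted p = 0.00372 and adjusted p = 0.218, DESeq2 adjusted p = 0.0111). Ddit4, an inhibitor of mTORC1, was at 51.4 ± 9.34 CPM in Myh11-Cre aortae and 29.8 ± 5.29 CPM in Wild Type aortae (log2 fold change 0.78, SE 0.31). Its highest libraries were also Myh11-Cre 3, Itga8-Cre 3 and Myh11-Cre 2, at 58.1, 56.1 and 55.4 CPM. Myh11-Cre 1 and Itga8-Cre 1 were at 40.7 and 36.1 CPM, against 24.9 to 35.4 CPM in Wild Type, and the part of skeletal muscle was not tested. Slc7a11, a cystine transporter gene, was at 22.1 ± 6.24 CPM in Itga8-Cre aortae and 9.83 ± 0.814 CPM in Wild Type aortae (1.17, SE 0.40). The death receptor gene Tnfrsf10b, a CHOP target, was at 4.11 ± 0.253 CPM in Itga8-Cre aortae, 4.21 ± 0.271 CPM in Myh11-Cre aortae and 5.57 ± 0.651 CPM in Wild Type aortae, and Sesn2, a stress-induced inhibitor of mTORC1, was at 14.1 ± 3.3 CPM in Itga8-Cre aortae and 20.2 ± 4.02 CPM in Wild Type aortae.

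**Figure D4:**
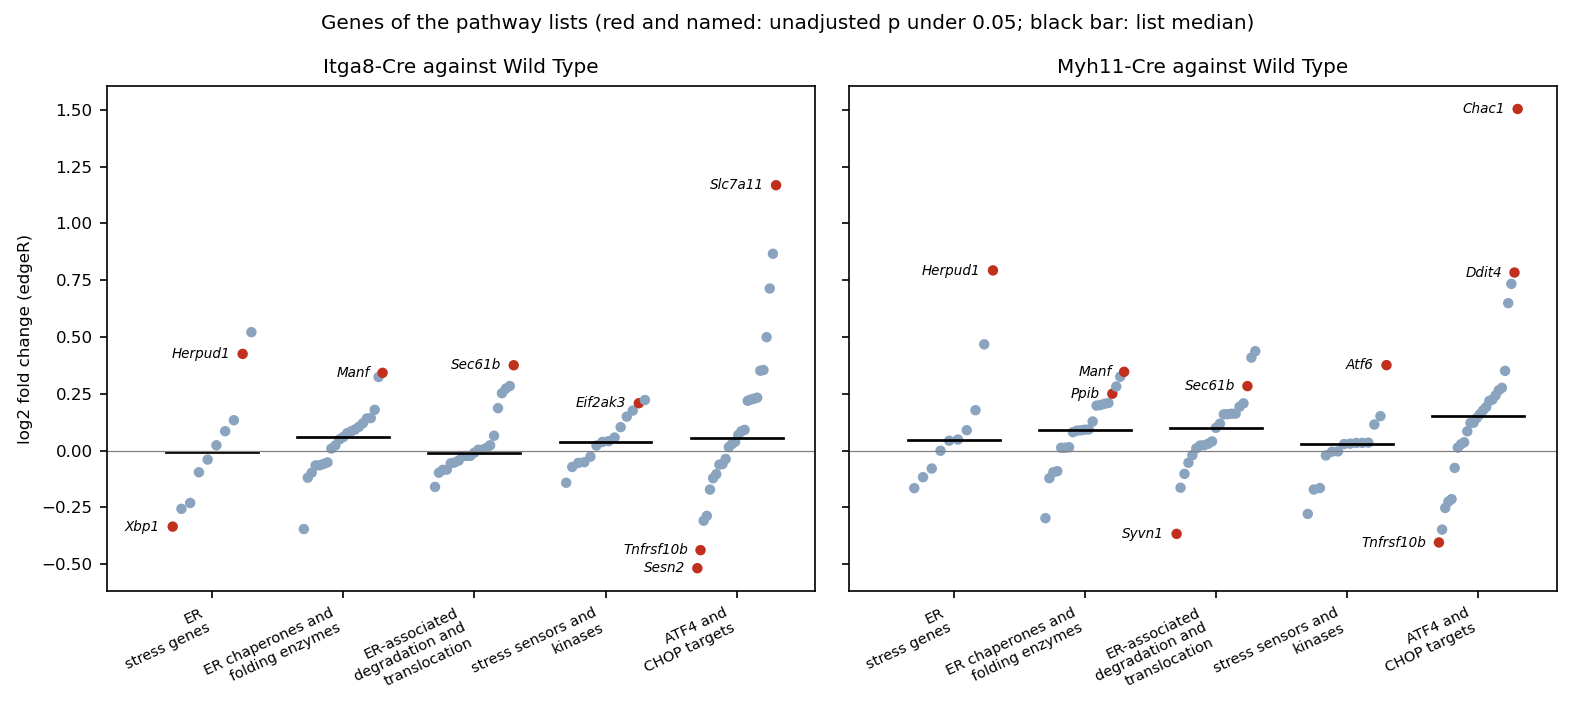
Log2 fold change in edgeR (vertical axis) of the 10 ER stress genes and the genes of 4 further pathway lists in Itga8-Cre and in Myh11-Cre, each against Wild Type, with the list median as a black bar and genes at an unadjusted p under 0.05 in red and named. The medians lie between -0.01 and 0.15, and Chac1 at 1.503, Slc7a11 at 1.17 and Herpud1 at 0.79 lie far above them.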

How the data were processed

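RNA of whole aortae from 9 mice was sequenced, 3 each of Itga8-Cre, Myh11-Cre and Wild Type. The authors deposited raw counts per gene symbol and a second table of signal values, those counts divided by 1 size factor per library, which equalled DESeq2's size factors. Per the submitters' processing notes the build was GRCm38.p6 and the tools named, with no order, were STAR 2.7.0f for one, then fastp 0.20.0, Salmon 0.13.1, DESeq2, featureCounts and Subread 1.6.4. For the annotation release and the strand setting, neither is given in the sources used here.

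The counts were filtered with filterByExpr, scaled by TMM and tested in edgeR 4.0.16 (R 4.3.3) by the robust quasi-likelihood test in 1 fit of all 9 libraries, with Benjamini-Hochberg adjustment over 19412 genes and a threshold of 0.05. Alternatives were DESeq2 1.42.0, limma voom 3.58.1, other scaling, no filter, 2 groups only, a replicate block and libraries left out. Nothing says how the mice were raised or batched, so p-values measure the spread between these samples. Total counts ran from 31419238 to 42497543. Named genes were the 10 members, Itga8 and Myh11, and, from each of the 4 further lists and each comparison, up to 3 genes with the smallest p, plus the 5 genes most like Hspa5 and Ddit3 by Pearson r. The 5 genes most like Herpud1 fall outside this rule and were named after its values were seen. The members and lists were chosen with earlier results of these data known. Sequences are from RefSeq (GRCm38.p6), and gene positions from GENCODE M21.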

Additional observations from a re-analysis of the deposited data

How the results depend on the processing

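With edgeR 0 genes passed in each comparison, also when each library was left out in turn (0 to 0 of all genes and of the 10 genes). DESeq2 called 30, 828 and 19 genes in Itga8-Cre against Wild Type, Myh11-Cre against Wild Type and Itga8-Cre against Myh11-Cre, and 1 of the 10 genes, Herpud1, in the second. In Myh11-Cre against Wild Type, 1 gene passed with no filter, 1 with the brown fat covariate, and 265 without Itga8-Cre 1 and Myh11-Cre 1, among them 1 of the 10, Herpud1. Those libraries were picked by their expression values. In Itga8-Cre against Myh11-Cre 1 gene passed with the brown fat covariate, chosen after seeing the data. The cause was not tested.

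With mouse number as a replicate block, 1 gene passed in Myh11-Cre against Wild Type, where Herpud1 had a log2 fold change of 0.79 (edgeR adjusted p = 0.193), and the block changed no call among the 10 genes. The labels tie no number to a litter or batch. Of 9 same-numbered pairs, 5 correlated above 0.1 and all 9 above 0 (0.033 to 0.396). The other pairs ran from -0.355 to 0.240, and most of them were below 0. Since not every same-numbered pair was above 0.1, a threshold chosen here, the numbers were not taken as pairs. Not every library correlated best with its own number, which is a hint from the data and not the design.

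Some signs turned with the processing or the libraries used. Of the log2 fold changes listed below, the largest in the main fit was 0.13, for Pdia4 in Itga8-Cre against Wild Type. Leaving out 1 library moved Trib3 the furthest. Hsp90b1 in Itga8-Cre against Wild Type was -0.0038 with RLE factors, -0.0054 with DESeq2 and -0.00060 with 2 groups only (-0.0684 to 0.0752 leaving out 1 library). Trib3 in Myh11-Cre against Wild Type was 0.0085 with no filter, 0.0087 with RLE factors, 0.012 with DESeq2 and 0.0044 with 2 groups only (-0.36 to 0.19). Without both libraries, Trib3 was -0.0368 in Itga8-Cre and Hsp90b1 -0.0276 in Myh11-Cre against Wild Type, and Hsp90b1 was 0.0470 and Pdia4 0.12 in Itga8-Cre against Myh11-Cre. Sdf2l1 was -0.0327 there with the brown fat covariate. Leaving out 1 library, the ranges in Itga8-Cre against Wild Type were -0.126 to 0.0435 for Hspa5, -0.186 to 0.0231 for Atf4, -0.00787 to 0.206 for Pdia4 and -0.0184 to 0.20 for Trib3. In Myh11-Cre against Wild Type they were -0.0403 to 0.184 for Atf4, -0.179 to 0.0135 for Dnajb9 and -0.0230 to 0.0967 for Hsp90b1. In Itga8-Cre against Myh11-Cre they were -0.10 to 0.20 for Sdf2l1, -0.114 to 0.0464 for Hsp90b1, -0.187 to 0.0935 for Pdia4 and -0.11 to 0.44 for Trib3.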
